A study of Homo sapiens with 6 samples.

Results

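The genes described here are 58 genes of the distal long arm of chromosome 9, the band called 9q34, measured by RNA-seq in MDA-MB-231, a mesenchymal, triple-negative line of human breast cancer. They are 58 of the 26255 gene symbols in the expression table, and all 58 were expressed above the filter, among 14349 tested genes. The list was selected on the difference between shGPR81 and shNT in these same libraries, known from earlier results, together with position, so that difference is given below as a description. Where members are counted by a threshold of the fit across all genes, the share of all tested genes stands beside the count. For most of the alternative settings at the end that share is not given. The choice of the list sets the excess over that share. On GRCh37, the human genome build named in the study's methods, they span chr9:130547958-140764468, from CDK9 to EHMT1, a stretch of 10.2 Mb. The study compared 3 libraries of cells that carried a control hairpin (shNT) with 3 libraries of cells that carried a hairpin against GPR81 (shGPR81), the lactate receptor encoded by HCAR1. Both groups had been infected with lentivirus and selected with puromycin, and how many resistant clones stand behind each group is not stated. The labels do not say which of the study's hairpins against GPR81 the sequenced cells carried, nor whether the libraries came from separate cultures, so the spread between libraries may be technical.

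The band 9q34 is gene-rich and GC-rich. It holds ABL1, the tyrosine kinase that is joined to BCR in the Philadelphia chromosome of chronic myeloid leukaemia, NUP214 and SET, which are partners in leukaemia fusions, NOTCH1, a receptor mutated in T-cell leukaemia, TSC1, which encodes hamartin of the tuberous sclerosis complex, and EHMT1, whose loss causes Kleefstra syndrome. The other genes of the list have little in common beside their location. They encode enzymes of sugar and lipid synthesis in the secretory pathway, nuclear pore and RNA proteins, mitochondrial proteins and ubiquitin ligase subunits.

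Expression was given as FPKM, fragment numbers scaled to transcript length and to the mapped reads of the library. HCAR1, the targeted gene, was low, at 0.968, 1.02 and 1.36 FPKM in shNT and at 0.978, 0.891 and 0.396 FPKM in shGPR81. The groups overlapped, by shNT replicate 1 and shGPR81 replicate 1, so the gene did not separate the labelled groups (log2 difference -0.57, SE 0.31, adjusted p = 0.38 from limma). By other measures, RT-qPCR and western blotting, the study reported GPR81 to be reduced in both of its hairpin lines. The mesenchymal markers VIM, CD44, FN1 and AXL were at 49.01 FPKM or more in every library, while ESR1, PGR and CDH1 were listed at 0 in all 6. The luminal and epithelial markers GATA3 (1.11 to 1.39 FPKM) and EPCAM (up to 6.86 FPKM) were present at low levels. Relative depth, read from the steps between low values, was 1.0 to 1.07 over the 6 libraries, which with annotated transcript lengths corresponds to about 11840000 to 12680000 reads each. MIR6723, a short RNA gene, took between 28.1% (shGPR81 replicate 3) and 36.2% (shNT replicate 3) of the summed FPKM. Since FPKM is scaled to transcript length, this is not its share of the reads.

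Several of these genes share a start region, and their promoters are shown because neighbours read from one stretch of DNA can be compared directly. Start sites of 3 pairs of members lay within 1000 bases of each other on opposite strands and pointed away from each other. TRUB2 and COQ4 started 97 bases apart on GRCh37 in GENCODE. DOLK and NUP188 started 96 bases apart in both GENCODE and RefSeq, and C9orf78 and USP20 started 183 bases apart in RefSeq. The following windows reach from 250 bases before to 50 bases after the start and are RefSeq sequences on GRCh38.p14, 5′ to 3′ on the strand of the named gene. Capitals mark matches on either strand to GGGCGG, the GC box bound by SP1, to CCGGAAG, an ETS-like word, to CACGTG, the E-box, and to TATAAA, the TATA box. No one of these words contains another. The NUP188 window is chr9:128947449-128947748 on the plus strand, that of USP20 is chr9:129835208-129835507 on the plus strand, and that of TRUB2 is chr9:128322398-128322697 on the minus strand.
NUP188: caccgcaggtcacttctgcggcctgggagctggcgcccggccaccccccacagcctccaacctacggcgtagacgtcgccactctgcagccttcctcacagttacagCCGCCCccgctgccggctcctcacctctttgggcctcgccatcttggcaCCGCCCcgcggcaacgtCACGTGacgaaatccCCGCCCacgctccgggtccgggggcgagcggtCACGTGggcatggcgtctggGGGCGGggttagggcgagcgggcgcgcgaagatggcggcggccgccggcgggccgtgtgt
USP20: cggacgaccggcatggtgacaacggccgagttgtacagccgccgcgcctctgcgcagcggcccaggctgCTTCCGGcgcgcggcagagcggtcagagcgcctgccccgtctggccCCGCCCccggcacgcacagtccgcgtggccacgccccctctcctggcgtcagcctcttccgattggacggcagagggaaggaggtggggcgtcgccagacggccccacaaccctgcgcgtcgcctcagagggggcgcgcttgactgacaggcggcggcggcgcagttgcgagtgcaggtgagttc
TRUB2: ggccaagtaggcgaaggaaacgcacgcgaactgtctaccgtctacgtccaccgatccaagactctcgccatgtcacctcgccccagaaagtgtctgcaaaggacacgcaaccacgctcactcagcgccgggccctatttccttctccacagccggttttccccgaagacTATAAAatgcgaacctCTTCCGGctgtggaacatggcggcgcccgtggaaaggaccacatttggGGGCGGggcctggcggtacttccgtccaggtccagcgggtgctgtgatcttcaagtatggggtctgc
The start of DOLK lies inside the NUP188 window and that of C9orf78 inside the USP20 window. The shared stretch of NUP188 and DOLK held GC boxes and 2 E-boxes, while the TRUB2 window was the one of the 3 with a TATA box.

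Promoters of the list as a whole were rich in CpG. RefSeq windows were matched for 51 of the 58 genes. Their median GC content was 72% with a median of 33.5 CpG per window, against 64.7% and 25 CpG for the windows of 10438 tested genes. The GC box was found in 47 of the 51 genes, or 92.2%, against 75.7% of tested genes and 48.3% of all 27305 genes with a window. The ETS-like word was found in 21 genes (41.2%, against 21.7% of tested genes and 12.2% of all), and the E-box in 15 (29.4%, against 12.3% and 8.77%). The TATA box was found in 4 genes, or 7.84%, against 8.42% of tested genes and 13.99% of all. These are matches of letters and not measured binding sites. The 51 genes had 84 windows, against 15132 windows for the 10438 tested genes and 35116 for all 27305 genes. The shares of genes were not matched for the number of windows per gene.

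Most of the 58 genes were somewhat higher in shGPR81 than in shNT. The difference, taken as the mean of log2(FPKM + 0.1) in shGPR81 minus that in shNT, was above 0 for 55 genes, with a median of 0.16 and quartiles of 0.082 and 0.26, where 51.9% of all tested genes were above 0 and their median was 0.008. In bulk RNA, more RNA of a gene per cell and more cells that express it cannot be told apart. The gene furthest up was CRAT, at 1.35-fold, and the genes that were not above 0 were PMPCA, SLC27A4 and ST6GALNAC4, at -0.023, -0.022 and -0.002. In 32 genes each shGPR81 library was above every shNT library, where 12.9% of all tested genes were, and in 0 genes each shGPR81 library was below every shNT library, where 12.7% of all tested genes were. Because the region was chosen for this difference, these counts describe the list and are not evidence for it.

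**Figure D1:**
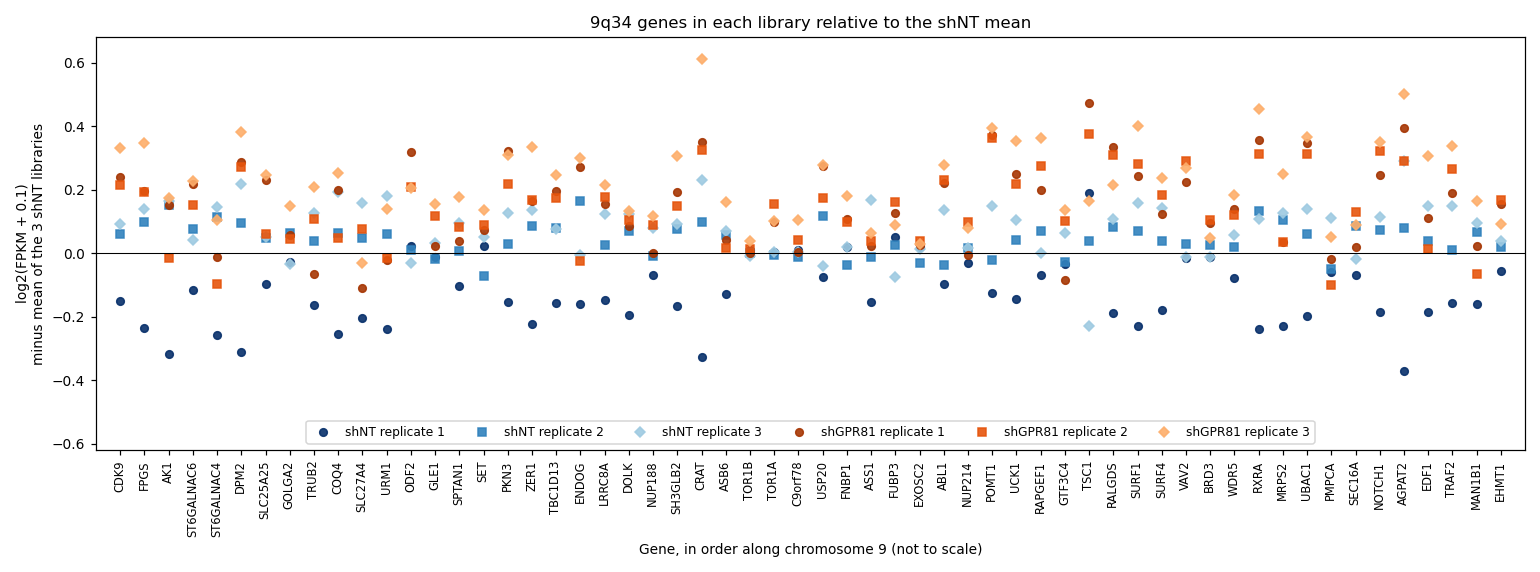
Each of the 58 genes of 9q34 in each of the 6 libraries, in order along chromosome 9 from CDK9 to EHMT1; the vertical axis is log2(FPKM + 0.1) minus the mean of the 3 shNT libraries. The shGPR81 points lie mostly above 0, up to CRAT with a mean of 0.43, while shNT replicate 1 is the lowest of the 6 libraries in 45 genes.

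The shNT libraries differed among themselves at these genes about as much as at others, but in a more even order. The range among the 3 shNT libraries had a median of 0.25 on the log2 scale over the 58 genes, against 0.27 over all tested genes. The 58 genes were more abundant, with a median mean of 24.1 FPKM against 8.24 FPKM. Neither this comparison nor the shares of all tested genes given here were matched for abundance. The shNT range of the 58 genes was larger than their median difference between the groups. It was also larger than their median range of 0.12 among the shGPR81 libraries, which was 0.18 over all tested genes. With 1 shNT library left out, the median range was 0.067 without replicate 1, 0.25 without replicate 2 and 0.18 without replicate 3. A range over fewer libraries cannot exceed that over all 3, so these values are not set against the other ranges. By library, shNT replicate 1 was the lowest of the shNT group in 47 genes (81.0%, against 40.9% of all tested genes) and the lowest of all 6 libraries in 45 (77.6%, against 26.2%). At the other end, shNT replicate 3 was the highest shNT library in 40 genes (69.0%, against 36.3%). In the other group, shGPR81 replicate 3 was the highest shGPR81 library in 45 genes (77.6%, against 37.2%). Relative to the shNT mean, the median gene lay at -0.15, 0.044 and 0.095 in the 3 shNT libraries and at 0.15, 0.14 and 0.21 in the 3 shGPR81 libraries. The 3 shGPR81 medians were thus all above the 3 shNT medians, with shNT replicate 3 nearest to them. Set against shNT replicate 3 alone, the shGPR81 mean was higher in 44 of the 58 genes, with a median difference of 0.100. Without shNT replicate 1 the median difference between the groups was 0.11, and 50 genes were above 0.

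The group difference was larger than the range among the shNT libraries in 22 of the 58 genes, or 37.9%, against 24.5% of all tested genes. In the fit across all genes with limma, 2 of the 58 genes were called higher at an adjusted p under 0.05 and 0 were called lower, where 2.06% of all tested genes were called higher and 3.07% lower. These were ODF2 and VAV2, which are named after their values were seen. With a fold change above 1.5 as a further threshold, 0 of the 58 were called by limma and 0.955% of all tested genes were called higher. At an unadjusted p under 0.05, 28 of the 58 were higher and 0 lower, against 10.1% of all tested genes higher and 9.43% lower. These counts restate the difference on which the list was selected and test nothing further. Both adjusted calls were lost when shGPR81 replicate 1, shGPR81 replicate 2, shGPR81 replicate 3 or shNT replicate 2 was left out, and 3 genes were called without shNT replicate 1 or without shNT replicate 3.

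**Figure D2:**
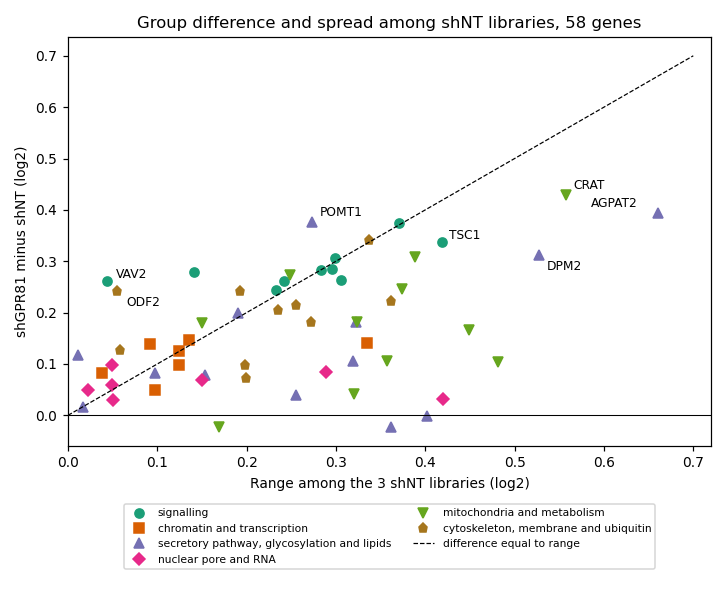
The group difference (shGPR81 minus shNT, log2) of each of the 58 genes against the range among its 3 shNT libraries (log2), with symbols for the 6 role groups; the dashed line marks a difference equal to the range. Of the genes, 22 have a difference larger than their range, with VAV2 and ODF2 far above the line at ranges of 0.043 and 0.055, whereas AGPAT2, CRAT and DPM2 have the widest ranges.

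The 10 genes of signalling proteins had the largest median difference, 0.28. All 10 were above 0, between 0.24 and 0.37, and in 9 the groups did not overlap. Counts without overlap in this and the other role groups stand against 12.9% of all tested genes higher without overlap. The list was selected on this difference, and the role groups were not tested against each other. CDK9, the kinase of the elongation factor P-TEFb, at chr9:130547958-130553071, was at 25.9, 29.9 and 30.6 FPKM in shNT and 33.9, 33.3 and 36.1 FPKM in shGPR81. Its groups did not overlap, and its difference of 0.26 (SE 0.076) was close to its shNT range of 0.24. PKN3, a kinase related to protein kinase C, was at 15.9, 18.03 and 19.3 FPKM in shNT and 22.1, 20.6 and 21.9 FPKM in shGPR81, a difference of 0.28 (SE 0.082). RXRA, the retinoid X receptor alpha, was at 13.5, 17.5 and 17.2 FPKM in shNT and 20.5, 19.9 and 21.9 FPKM in shGPR81, a difference of 0.37 (SE 0.11) with every shGPR81 library above every shNT library. TSC1, at chr9:135766735-135822261, was the one signalling gene whose groups overlapped, with 4.81, 4.32 and 3.57 FPKM in shNT and 5.88, 5.49 and 4.72 FPKM in shGPR81. Here shNT replicate 3 and not replicate 1 was the lowest library. VAV2, which encodes a guanine nucleotide exchange factor, had close libraries within each group, with 11.96, 12.3 and 11.99 FPKM in shNT and 14.1, 14.8 and 14.6 FPKM in shGPR81, and a difference of 0.26 (SE 0.056) against an shNT range of 0.043. For the receptor gene NOTCH1, at chr9:139388885-139440500, the difference was 0.31 (SE 0.10), and for ABL1, at chr9:133588430-133763062, it was 0.24 (SE 0.072). The remaining members of this group were RAPGEF1 and RALGDS, which encode exchange factors of small GTPases, at 0.28 (SE 0.069) and 0.29 (SE 0.093), and TRAF2, an adaptor of TNF receptors, at 0.26 (SE 0.089).

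The 7 genes of chromatin and transcription were all above 0, with a median of 0.13 and a range of 0.050 to 0.15, and 5 had groups without overlap. SET, a histone chaperone and inhibitor of protein phosphatase, was the most abundant of the 58 genes, at 399, 373 and 406 FPKM in shNT and 412, 417 and 430.4 FPKM in shGPR81. Its groups did not overlap, although the difference of 0.098 (SE 0.052) was below its shNT range of 0.12. EDF1, a small coactivator protein that also binds ribosomes, was at 239, 279.9 and 302 FPKM in shNT and 294, 275 and 336 FPKM in shGPR81, and its groups overlapped. WDR5, a subunit of the histone methyltransferase complexes of the MLL family, had the largest difference of this group at 0.15 (SE 0.054), followed by EDF1 at 0.14 (SE 0.10) and EHMT1, a methyltransferase of histone H3, at 0.14 (SE 0.062). FUBP3, a single-strand nucleic acid binding protein, was at 0.13 (SE 0.054) and BRD3, a bromodomain protein, at 0.082 (SE 0.06). GTF3C4, a subunit of the RNA polymerase III factor TFIIIC, was lowest at 0.05 (SE 0.076).

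Genes of the secretory pathway, glycosylation and lipids were mixed. Of 13 genes, 11 were above 0, with a median of 0.11 and a range of -0.022 to 0.39, and 4 had groups without overlap. AGPAT2, which makes phosphatidic acid from lysophosphatidic acid and lies at chr9:139567595-139581909, had the second largest difference of all 58 genes, 0.39 (SE 0.16), and the widest shNT range, 0.66. It was at 26.2, 35.8 and 41.5 FPKM in shNT and 44.6, 41.5 and 48.04 FPKM in shGPR81, so that shNT replicate 3 was just above the lowest shGPR81 library, and its difference was 0.21 without shNT replicate 1. DPM2, a regulatory subunit of dolichol phosphate mannose synthase, had the third widest range, with 55.1, 73.00 and 79.5 FPKM in shNT and 83.4, 82.6 and 89.1 FPKM in shGPR81, and groups that did not overlap. POMT1, a protein O-mannosyltransferase, had the third largest difference, 0.38 (SE 0.088), from 5.33, 5.74 and 6.46 FPKM in shNT and 7.57, 7.52 and 7.68 FPKM in shGPR81. Its 3 shGPR81 libraries were all above its shNT libraries and close to each other. SURF4, a cargo receptor for export from the endoplasmic reticulum, was at 110.3, 128 and 138 FPKM in shNT and 136, 142 and 147 FPKM in shGPR81, where shNT replicate 3 was above shGPR81 replicate 1. The paralogs TOR1A and TOR1B, which encode torsins of the endoplasmic reticulum and lie next to each other, were at 0.12 (SE 0.045) and 0.016 (SE 0.045). Differences of the adjacent sialyltransferase genes ST6GALNAC4 and ST6GALNAC6 were -0.0017 (SE 0.11) and 0.20 (SE 0.069). MAN1B1, a mannosidase of glycoprotein quality control, was at 0.04 (SE 0.09), the Golgi matrix gene GOLGA2 at 0.083 (SE 0.058), SEC16A of the exit sites at 0.079 (SE 0.068), and the fatty acid transporter gene SLC27A4 at -0.022 (SE 0.10).

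The 7 genes of the nuclear pore and of RNA showed the smallest differences, with all 7 above 0, a median of 0.058 and a range of 0.030 to 0.098. Groups did not overlap in 1 of them, EXOSC2, a subunit of the RNA exosome, with a difference of 0.03 (SE 0.045). NUP188, a scaffold nucleoporin, was at 85.1, 88.8 and 94.5 FPKM in shNT and 89.4, 95.1 and 96.9 FPKM in shGPR81, and its groups overlapped. C9orf78, a spliceosome-associated protein gene, was at 62.7, 61.7 and 62.3 FPKM in shNT and 62.4, 63.99 and 66.9 FPKM in shGPR81, one of the closest sets of values in the list. TRUB2, a pseudouridine synthase of mitochondrial RNA, was at 36.7, 42.1 and 44.8 FPKM in shNT and 39.3, 44.3 and 47.4 FPKM in shGPR81, with wide and overlapping groups. The other differences were 0.098 (SE 0.053) for GLE1, an mRNA export factor, 0.058 (SE 0.057) for NUP214, and 0.033 (SE 0.11) for URM1, a ubiquitin-like protein of tRNA thiolation.

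Of the 11 genes of mitochondria and metabolism, 10 were above 0, with a median of 0.18, a range of -0.023 to 0.43 and 5 with groups without overlap, and this group had the widest median shNT range, 0.36. CRAT, carnitine acetyltransferase, which moves acetyl groups between CoA and carnitine and lies at chr9:131856421-131873468, had the largest difference of all 58 genes, 0.43 (SE 0.15). It was at 12.3, 16.6 and 18.2 FPKM in shNT and 19.8, 19.4 and 23.7 FPKM in shGPR81, so that every shGPR81 library was above every shNT library while the shNT libraries also ranged over 0.56. Without shNT replicate 1 its difference was 0.27. SURF1, an assembly factor of cytochrome c oxidase, was at 40.6, 50.03 and 53.2 FPKM in shNT and 56.4, 57.9 and 62.9 FPKM in shGPR81, without overlap. MRPS2, a protein of the small mitochondrial ribosome subunit, was at 56.1, 70.8 and 71.9 FPKM in shNT and 67.5, 67.4 and 78.2 FPKM in shGPR81 and had overlapping groups, with a difference of 0.11 (SE 0.11) that was -0.01 without shNT replicate 1. COQ4, a factor of coenzyme Q synthesis, was at 25.8, 32.2 and 35.2 FPKM in shNT and 35.4, 31.8 and 36.7 FPKM in shGPR81, with overlap. Among the nucleotide, folate and urea cycle enzymes, UCK1 was at 0.27 (SE 0.078), FPGS at 0.25 (SE 0.10), AK1 at 0.10 (SE 0.13) and ASS1 at 0.042 (SE 0.094). The mitochondrial nuclease gene ENDOG was at 0.18 (SE 0.12), the ATP-magnesium carrier gene SLC25A25 at 0.18 (SE 0.087), and PMPCA, of the processing peptidase, at -0.023 (SE 0.067).

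All 10 genes of the cytoskeleton, membrane and ubiquitin system were above 0, with a median of 0.21, a range of 0.072 to 0.34, and 8 with groups without overlap. SPTAN1, the non-erythroid alpha spectrin, was at 69.9, 75.4 and 80.2 FPKM in shNT and 76.98, 79.4 and 84.7 FPKM in shGPR81, where shNT replicate 3 lay among the shGPR81 libraries. LRRC8A, the essential subunit of the volume-regulated anion channel, was at 44.1, 49.7 and 53.2 FPKM in shNT and 54.4, 55.2 and 56.7 FPKM in shGPR81, without overlap. UBAC1, a partner of the KPC ubiquitin ligase, had the largest difference of this group, 0.34 (SE 0.087), from 29.4, 35.3 and 37.2 FPKM in shNT and 43.00, 42.02 and 43.6 FPKM in shGPR81. Its shGPR81 libraries differed by less than its shNT libraries. USP20, a deubiquitinase, was at 4.28, 4.90 and 4.38 FPKM in shNT and 5.49, 5.11 and 5.49 FPKM in shGPR81, a difference of 0.24 (SE 0.088) without overlap. ODF2, a centriole appendage protein, was at 31.4, 31.1 and 30.2 FPKM in shNT and 38.5, 35.7 and 35.6 FPKM in shGPR81, a difference of 0.24 (SE 0.053) against an shNT range of 0.055. Of the others, SH3GLB2 was at 0.21 (SE 0.082), the RAB GTPase-activating protein gene TBC1D13 at 0.20 (SE 0.078), the ubiquitin ligase adaptors ZER1 and ASB6 at 0.22 (SE 0.11) and 0.072 (SE 0.074), and FNBP1, a membrane-bending F-BAR protein gene, at 0.13 (SE 0.051).

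The values of partners that share a start region can be set side by side, though the difference between partners was not tested. From the stretch printed for NUP188, the difference was 0.068 (SE 0.057) for NUP188 and 0.11 (SE 0.091) for DOLK, dolichol kinase, which was at 10.7, 12.9 and 13.4 FPKM in shNT and 13.02, 13.2 and 13.5 FPKM in shGPR81. From that printed for USP20 it was 0.24 (SE 0.088) for USP20 and 0.049 (SE 0.047) for C9orf78, and across the TRUB2 window it was 0.084 (SE 0.096) for TRUB2 and 0.17 (SE 0.12) for COQ4. The partners NUP188 and DOLK, and likewise TRUB2 and COQ4, lay closer together than the SE of either pair's less precise gene. USP20 and C9orf78 lay further apart than the SE of either gene. The SE of a single gene is not that of the difference between partners, so nothing is read from this. The annotated bounds of 3 pairs of members overlapped on opposite strands, by 1166 bases for C9orf78 and USP20, 61 for NUP188 and SH3GLB2, and 6 for POMT1 and UCK1. The library kit keeps strand, but whether counting used it is not stated, so reads in these overlaps may have gone to either gene.

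The differences had no steady order along the band. In bins of 2 Mb by gene midpoint, the median difference was 0.18 for the 25 genes from 130 to 132 Mb, 0.095 for 10 genes from 132 to 134 Mb, 0.28 for 7 genes from 134 to 136 Mb, 0.22 for 6 genes from 136 to 138 Mb and 0.14 for 9 genes from 138 to 140 Mb, while EHMT1, alone in the last bin, was at 0.14 (SE 0.062). The bin from 132 to 134 Mb, which holds TOR1A, TOR1B, C9orf78 and EXOSC2, had the closest shNT libraries, with medians of 0.0058, -0.0095 and 0.0079 relative to the shNT mean, and its shGPR81 libraries were at 0.069, 0.068 and 0.10. The bin from 138 to 140 Mb had the widest shNT range, 0.31 in the median.

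The interval from CDK9 to EHMT1 held 111 tested genes beside the 58. These neighbours, taken by position alone, had a median difference of 0.19. Of them, 87 were above 0 (78.4%, against 51.9% of all tested genes). Groups did not overlap upwards in 42 (37.8%, against 12.9%) and downwards in 4, where 12.7% of all tested genes did. Their shNT libraries were spread in the same order, at -0.15, 0.061 and 0.075 relative to the shNT mean. On the rest of chromosome 9 the medians were lower: 0.082 over 246 genes of the long arm before the interval (taken from 50 Mb on), 169 of which were above 0, and -0.005 over 142 genes of the short arm, 69 of which were above 0. In the long arm before the interval shNT replicate 1 was not the low library, at 0.042 against -0.004 and -0.027, and the shGPR81 libraries were at 0.089, 0.10 and 0.064. These values come from the contrast that chose the region and were not tested against each other.

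**Figure D3:**
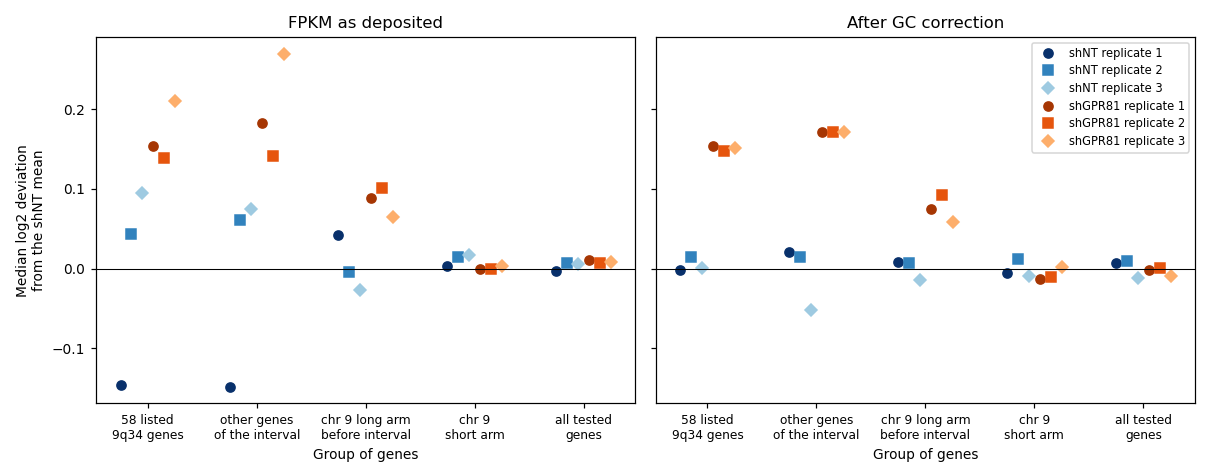
Median log2 deviation from the shNT mean in each of the 6 libraries, for the 58 genes, the other genes of the interval, the long arm of chromosome 9 before it, the short arm and all tested genes, with FPKM as deposited (left) and after removing the trend with GC content (right). For the 58 genes the shNT points lie at -0.15 to 0.095 on the left and at -0.002 to 0.015 on the right, and the shGPR81 points at 0.14 to 0.21 and at 0.15.

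The order of the shNT libraries moved with GC content. The median GC content of the longest annotated transcript was 56.8% for the 58 genes (from 39.9% in SET to 67.9% in ENDOG), 61.1% for the other genes of the interval and 47.9% for all tested genes. The 8523 tested genes averaging 5 FPKM or above were split into 10 bins by GC content. There shNT replicate 1 went from a median of 0.11 in the bin of lowest GC to -0.22 in that of highest GC relative to the shNT mean, and shNT replicate 3 went from -0.085 to 0.15. The other libraries had smaller changes from the lowest to the highest bin, from -0.028 to 0.076 in shNT replicate 2, from 0.025 to 0.020 in shGPR81 replicate 1, from 0.034 to -0.027 in shGPR81 replicate 2 and from -0.031 to 0.12 in shGPR81 replicate 3. The median difference between the groups lay between -0.006 and 0.037 over the 10 bins, and the 58 genes fell mostly in the bins of higher GC, with 10, 14, 14 and 10 genes in the last of them.

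**Figure D4:**
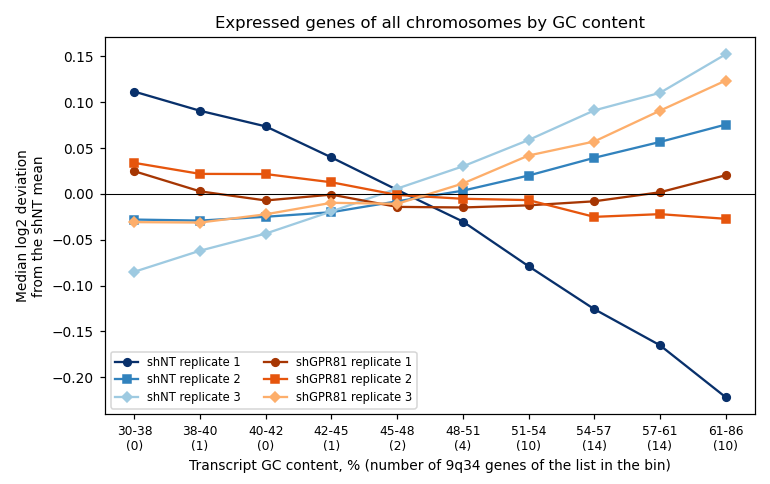
Median log2 deviation from the shNT mean of the 6 libraries in 10 bins of transcript GC content, over 8523 expressed genes of all chromosomes, with the number of the 58 genes in each bin in brackets. The line of shNT replicate 1 goes from 0.11 to -0.22 and that of shNT replicate 3 from -0.085 to 0.15, and the 6 lines lie close together in the middle bins.

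Within the list the same order held. Across the 58 genes, the value of shNT replicate 3 minus shNT replicate 1 went up with GC content (Pearson's coefficient 0.59, Spearman's 0.60), and so, less closely, did the group difference (0.36 and 0.39). Over the 8523 expressed genes of all chromosomes the coefficients were 0.34 and 0.75 for shNT replicate 3 minus shNT replicate 1. They were 0.017 and 0.059 for the group difference. For the range among the shNT libraries they were 0.56 and 0.56 across the 58 genes, and 0.088 and 0.29 across the 8523. The genes share libraries, and the 58 also a region and the choice by this difference, so they are not independent replicates. In the 29 genes of lower GC content, up to 56.7%, the median difference was 0.098 and the median shNT range 0.14, whereas in the 29 genes of higher GC content, from 57.0%, they were 0.24 and 0.31. The counts of genes higher without overlap were 12 and 20 of 29, where 12.9% of all tested genes were.

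With the trend on GC content removed from each library, the median range among the shNT libraries over the 58 genes was 0.100, and the median group difference was 0.13. Over all tested genes the range went from 0.27 to 0.19. The medians of the single libraries relative to the shNT mean were then -0.002, 0.015 and 0.000 in shNT and 0.15, 0.15 and 0.15 in shGPR81. Of the 58 genes 55 were above 0, where 49.1% of the 13825 tested genes with a GC content were, and 37 had groups without overlap, where 14.3% of tested genes did. With limma 20 were called higher at an adjusted p under 0.05, among them ODF2, where 5.06% of tested genes were. As before the correction, the list was selected on this contrast, and nothing is read from these counts. VAV2 was not among the 20, and its shNT range, 0.043 as deposited, was 0.25 after the correction. The shNT range of ODF2 went from 0.055 to 0.16. The difference was thus above 0 in 55 genes both before and after the correction. The median range among the shNT libraries was smaller after it, although the range of single genes such as VAV2 and ODF2 was wider.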

How the data were processed

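RNA from 3 shNT and 3 shGPR81 samples of MDA-MB-231 cells was sequenced from TruSeq stranded mRNA libraries as single-end reads. The deposited values are FPKM per gene symbol and library, which the authors made after mapping with TopHat 2.0.13, Bowtie 2 2.2.3 and SAMtools 0.1.19; the submitters' processing notes also name Cuffnorm 2.2.1. The paper names the human build hg19, whereas the notes name the mouse build mm10; the symbols are human, and GRCh37 was used for positions. The gene annotation is not given in the sources used here. No read counts were used here.

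Genes that reached 0.1 FPKM in 3 or more libraries were compared as log2(FPKM + 0.1) with limma 3.58.1 (lmFit, eBayes with trend, R 4.3.3) over all 6 libraries without a block, with Benjamini-Hochberg adjustment over 14349 genes. Calls at an adjusted p under 0.05 were counted with and without the study's minimal fold change of 1.5. Nothing says that libraries came from separate cultures, so p-values measure only the spread between these libraries. The fit was tested on simulated data for 14349 genes. Of 200 expressed genes changed 2-fold, 186 were called in the right direction at both thresholds, and 4 genes that had not been changed were called. The simulated spread was independent between genes, and the largest difference among the 58 genes was 1.35-fold (CRAT). The simulation therefore does not measure calls at smaller differences or under a trend shared by many genes. Loci, transcript lengths and GC content came from GENCODE release 44 on GRCh37, and promoters from RefSeq. Relative depth was the most common ratio between libraries among genes under 0.2 FPKM, since 1 read has the same worth in 1 gene; 1359 of 2376 such genes had whole multiples of 1 step (tolerance 0.001). GC content was corrected by a loess curve (span 0.5) for each library. The 58 genes, role groups and tests were chosen with earlier results of these data known. Genes given with all 6 values were the 2 most abundant of each role group, the 6 largest differences, the 3 widest shNT ranges and the pairs with a shared start region. ODF2 and VAV2 were added. Alternatives were a replicate block, each library left out, other filters and pseudocounts, median centring, quantile normalization and the GC correction.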

Additional observations from a re-analysis of the deposited data

How the results depend on the processing

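The median difference of the 58 genes kept its direction under all 14 alternatives, between 0.11 (without shNT replicate 1) and 0.20 (without shNT replicate 3), and so did that of the other genes of the interval, between 0.12 and 0.23. Between 50 and 58 of the 58 genes were above 0, and 30 to 40 had groups without overlap. Leaving out a library makes overlap rarer by construction. Among the alternatives, the shares of all tested genes for these counts are given here for the GC correction alone. For the 24 genes given with all 6 values, 335 of 336 differences under the alternatives kept their sign and stayed within 1 SD (within groups, log2) of the value given, while that of MRPS2 was -0.010 without shNT replicate 1.

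The number of the 58 genes called higher at an adjusted p under 0.05, 2 with the values as deposited, was 20 after GC correction, 1 after median centring, 0 after quantile normalization, 0 in the fit with a replicate block, and 0 to 3 with each library left out in turn. In the settings with 0 calls by limma, 12 to 29 of the 58 genes were higher at an unadjusted p under 0.05. The share of all tested genes in those settings is not given here. These counts restate the difference on which the list was selected, and nothing is read from them. With a fold change above 1.5 the number was 0 in every setting. The median shNT range was 0.100 after GC correction and 0.067 to 0.25 with each library left out. Leaving out an shNT library cannot widen this range. Over all tested genes, 365 were called with the fold threshold, 217 with a pseudocount of 1, 312 with the replicate block and 198 to 408 with a library left out; those higher at an adjusted p under 0.05 numbered 296, with 700 after GC correction and 89 to 399 with a library left out. The cause of these shifts was not tested. Between same-numbered libraries of both groups, deviations from the group means correlated at 0.15, 0.11 and -0.042 across genes, so the numbers were not taken to pair the samples. The estimated depth leaves about 110 reads or more for each of the 58 genes in each library.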
